A study of Rattus norvegicus with 4 samples.

Results

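Homeobox transcription factors outside the Hox clusters were followed in RNA sequencing of 2 rat cartilages. They were taken as the rows of the deposited gene count table whose symbol begins with Alx, Barx, Cux, Dlx, Emx, Irx, Lhx, Lmx, Meis, Meox, Msx, Nkx, Pbx, Pitx, Pknox, Prrx, Shox, Tgif, Zeb or Zfhx followed by a digit, with the sine oculis homeobox genes by the same rule and with Pitx1 left out. This gave 56 of the 13554 genes in the table, of which 34 passed the low-count filter and were tested. Articular cartilage, which covers the bone ends in joints, had 2 libraries, and xiphoid cartilage, which forms the lower tip of the sternum, had 2 libraries. All came from Sprague-Dawley rats of 8 to 10 weeks with no treatment or genetic change named in the labels, which give neither the joint nor the animals behind each library. The p-values therefore measure the spread between these libraries, which may be technical.

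The homeodomain is a small helical fold that reads short DNA motifs, often with the core ATTA, and homeobox genes set regional identity and cell fate in the embryo. Hox genes give position along the body axis. The genes outside the clusters include Hox partners of the TALE class (Meis, Pbx, Pknox) and factors of limb and facial mesenchyme (Prrx, Alx, Shox, Msx, Dlx, Barx). Others act in muscle (Six4, Meox1) or in nerve and limb tissue (Lhx, Lmx). In skeletal tissue several are known to set where cartilage forms or how fast it matures toward bone.

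Each library held between 7351005 and 8434821 counts. Levels are given as CPM, counts scaled by TMM to a common library size, a log2 fold change is articular over xiphoid cartilage, and called genes have an edgeR adjusted p under 0.05. The chondrocyte markers were high in both tissues, at 13.3% and 11.3% of articular counts and 4.19% and 3.84% of xiphoid counts, with 0 of 14 markers at 0 in either tissue. Bone and marrow markers took more of the articular reads, by unequal amounts. The erythroid sum was 0.799% and 0.818% in articular cartilage, against 0.0682% and 0.0748% in xiphoid cartilage. The osteoclast sum was 0.19% and 0.199% in articular cartilage, against 0.0153% and 0.0142% in xiphoid cartilage. The tissues were closer for the osteoblast and osteocyte sum, at 0.881% and 0.81% in articular and 0.603% and 0.647% in xiphoid cartilage. Gene by gene these markers were far apart. Of the 9 tested, 8 were called for articular cartilage, and their median log2 fold change was 6.35, so the sum does not show similar bone cell content. Markers of skeletal muscle were at 0.0309% and 0.0245% in the articular libraries, against 0.832% and 0.851% in the xiphoid libraries. Those of fat were at 0.01% and 0.00882% in articular, against 0.315% and 0.25% in xiphoid cartilage, and those of fibroblasts and perichondrium at 0.106% and 0.103% in articular, against 1.73% and 1.57% in xiphoid cartilage. In dissected tissue of this kind, fewer cells of a type and less RNA per cell cannot be told apart.

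Barx1, Shox2, Dlx3, Irx3 and Irx5 were far higher in articular cartilage, while Alx1, Msx1, Prrx2, Lhx2, Lhx6 and Pknox2 were far higher in xiphoid cartilage. Barx1 and Alx1 were nearly confined to 1 tissue, with 2507 articular against 4 xiphoid counts for Barx1 and 0 articular against 875 xiphoid counts for Alx1. Of the 34 tested genes, 10 passed on the articular side, 17 passed on the xiphoid side and 7 did not pass. Over all 11202 genes tested, 25.0% were called higher in articular and 24.5% higher in xiphoid cartilage, 49.5% in all, beside 79.4% of the 34. The median log2 fold change of the 34 was -0.52, against -0.02 for all genes tested, and the median of its size without the sign was 1.66, against 0.57. These counts are a description, since 11 of the 34 passed the filter through 1 tissue alone, the only one with both libraries above its cutoff. That favours a difference without forcing one, and the share was 32.4% against 11.1% of all genes tested. Among the 11 were Alx1, Alx4, Shox2, Dlx3, Barx1, Lhx2, Lhx6, Pknox2 and Zfhx2. The libraries of the tissues did not overlap for 28 of the 34 genes, where the share over all genes tested was 74.9%.

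**Figure D1:**
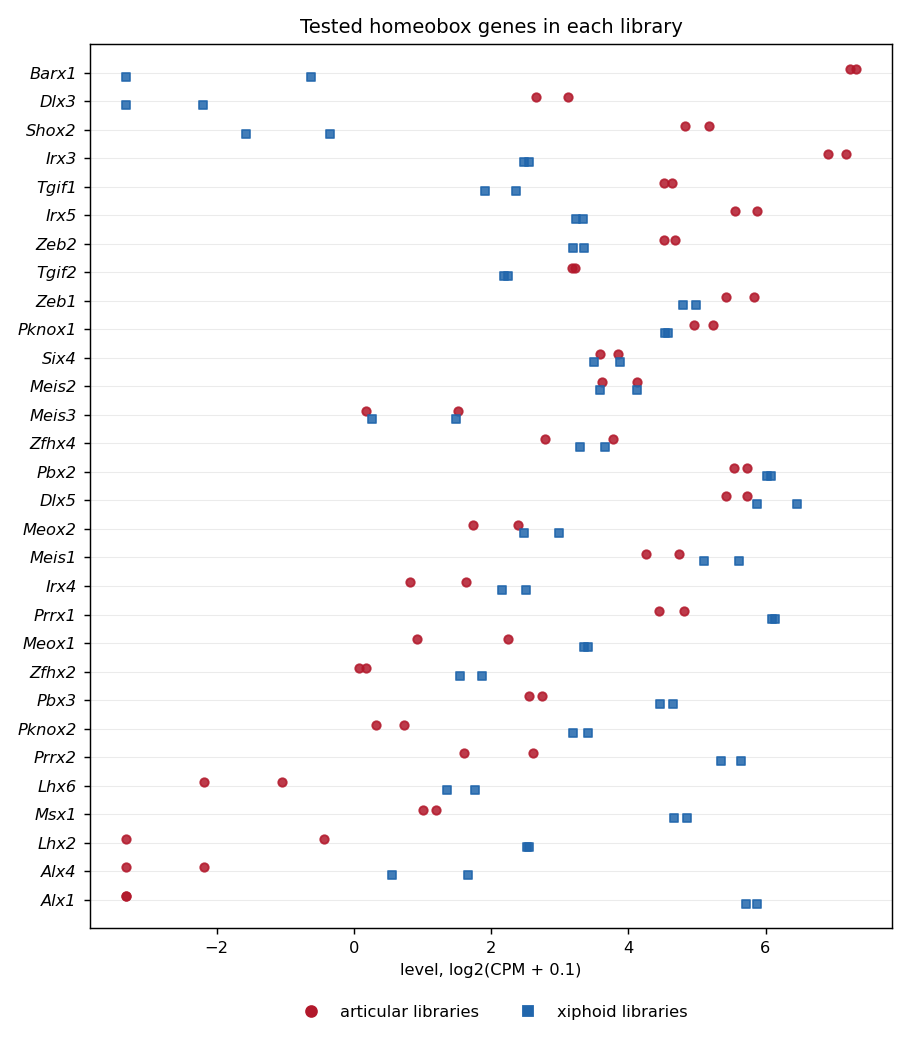
Levels of 30 tested homeobox genes in each library, as log2(CPM + 0.1), with circles for the 2 articular libraries and squares for the 2 xiphoid libraries. Genes run from the most articular at the top to the most xiphoid at the bottom, where Alx1 had no articular count.

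The paired-like genes, named for a homeodomain close to that of the Pax factors, included genes of both directions. Alx1, Alx4, Prrx1 and Prrx2 were called for xiphoid cartilage and Shox2 for articular cartilage. Alx1, a factor of facial mesenchyme and cartilage, had 0 and 0 counts in articular cartilage, against 448 and 427 in xiphoid cartilage, or 0 and 0 CPM (articular) and 52.7 and 58.5 CPM (xiphoid). It was therefore at least 298-fold lower in articular cartilage, computed against 3 counts over both articular libraries (edgeR adjusted p = 9.49e-09). Its paralog Alx4, a factor of limb and skull, lay on the same side. Alx4 had 1 and 0 counts in articular cartilage, against 26 and 10 in xiphoid cartilage, a 36.8-fold ratio of scaled counts (exact 95% interval for counting error, 6.19 to 1490.0) in favour of xiphoid cartilage (edgeR adjusted p = 0.00199). Its fitted log2 fold change of -4.87 was -4.06 without articular replicate 2, and -7.15 without articular replicate 1, where no articular count remained.

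Prrx1 and Prrx2, paired-related factors that mark limb and facial mesenchyme, were both higher in xiphoid cartilage, and by unequal amounts. Prrx1 was at 21.8 and 27.9 CPM in the articular libraries, against 68.3 and 70.5 CPM in the xiphoid ones (log2 fold change -1.48, SE 0.18, edgeR adjusted p = 2.37e-05). Prrx2 was at 5.98 and 2.95 CPM in the articular libraries, against 49.7 and 40.5 CPM in the xiphoid ones (log2 fold change -3.32, SE 0.28, edgeR adjusted p = 1.34e-06). Its log2 fold change was -3.93 without articular replicate 1. In both genes each xiphoid library lay above each articular library, 2.80-fold on average for Prrx1 and 10.00-fold for Prrx2. Pitx3, a factor of lens and muscle, was not tested and had 1 and 0 counts in articular cartilage, against 4 and 10 in xiphoid cartilage. The fibroblast, muscle and fat marker sums given above moved with these genes, and their part in the result was not tested. Of 7 tested markers of fibroblasts and perichondrium, 4 were called for xiphoid and 1 for articular cartilage. For muscle, 15 markers were listed and 13 were in the gene count table. Of these 13, 4, among them Myod1 and Myog, had no count in articular cartilage and 0 were undetected in xiphoid cartilage.

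Shox2, which drives growth of the upper limb segment in mouse and is a relative of the human short stature gene, went the other way. It was at 28.4 and 36.1 CPM in the articular libraries, against 0.235 and 0.685 CPM in the xiphoid ones (log2 fold change 6.13, SE 0.38, edgeR adjusted p = 8.42e-08). Both articular libraries lay far above both xiphoid libraries, which held 2 and 5 counts. Leaving out xiphoid replicate 1 gave a log2 fold change of 5.53, against 7.02 without xiphoid replicate 2.

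The sequences around the RefSeq starts of 5 called genes are shown, because Alx1, Prrx1, Prrx2 and Msx1 shared a direction and Irx3 was opposed to them. Each runs from 250 bases before to 50 after the start in assembly GRCr8, 5′ to 3′ on the gene's strand, and capitals mark ATTA or its reverse complement TAAT, the core that many homeodomains read. The positions are chr7:40063729-40064028, minus strand, for Alx1, chr13:78204024-78204323, minus strand, for Prrx1, chr3:34530081-34530380, plus strand, for Prrx2, chr14:77185552-77185851, plus strand, for Msx1, and chr19:31384868-31385167, plus strand, for Irx3.
Alx1: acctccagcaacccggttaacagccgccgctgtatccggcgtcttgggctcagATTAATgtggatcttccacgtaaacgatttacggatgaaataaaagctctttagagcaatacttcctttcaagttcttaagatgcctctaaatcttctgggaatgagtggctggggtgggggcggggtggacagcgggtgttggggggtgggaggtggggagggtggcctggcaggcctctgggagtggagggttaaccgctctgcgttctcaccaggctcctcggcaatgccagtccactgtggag
Prrx1: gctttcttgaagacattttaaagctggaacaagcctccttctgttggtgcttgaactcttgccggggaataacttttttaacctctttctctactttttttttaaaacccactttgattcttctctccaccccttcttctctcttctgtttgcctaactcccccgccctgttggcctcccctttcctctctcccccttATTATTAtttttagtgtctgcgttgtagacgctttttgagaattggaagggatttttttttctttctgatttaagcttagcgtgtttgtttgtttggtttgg
Prrx2: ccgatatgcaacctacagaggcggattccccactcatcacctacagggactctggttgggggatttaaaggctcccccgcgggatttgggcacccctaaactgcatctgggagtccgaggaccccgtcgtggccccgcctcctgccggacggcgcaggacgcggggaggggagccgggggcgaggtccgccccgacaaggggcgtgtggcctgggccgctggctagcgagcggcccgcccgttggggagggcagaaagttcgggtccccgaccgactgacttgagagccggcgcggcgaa
Msx1: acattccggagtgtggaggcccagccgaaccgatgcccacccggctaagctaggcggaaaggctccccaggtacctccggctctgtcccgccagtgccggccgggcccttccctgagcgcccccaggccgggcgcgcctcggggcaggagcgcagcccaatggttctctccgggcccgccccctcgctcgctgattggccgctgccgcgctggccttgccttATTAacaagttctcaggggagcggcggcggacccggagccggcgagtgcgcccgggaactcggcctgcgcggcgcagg
Irx3: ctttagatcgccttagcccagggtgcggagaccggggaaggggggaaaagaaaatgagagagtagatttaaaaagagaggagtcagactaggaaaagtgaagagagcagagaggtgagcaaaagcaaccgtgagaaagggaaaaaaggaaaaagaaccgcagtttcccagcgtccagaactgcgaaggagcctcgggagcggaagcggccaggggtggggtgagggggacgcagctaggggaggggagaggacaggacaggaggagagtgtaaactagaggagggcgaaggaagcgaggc
Alx1 and Prrx1 each held overlapping copies of the core, Msx1 held 1, and Prrx2 and Irx3 held none in this window. These 5 were picked by direction, and the core was not confined to 1 side. Among the other called genes reported here, Zeb2 and Pknox1 held it on the articular side, while Zeb1 and Tgif2 did not. On the xiphoid side Meis1, Irx4 and Zfhx2 held it, while Pbx2, Pknox2, Lhx2 and Lhx6 did not. In the 33 members with a promoter in the RefSeq table, 13 held ATTA on either strand, or 39.4%, against 59.7% of 27457 promoters of the same length. The members' windows were richer in G and C, with a median of 64.7% against 52.3%. The palindrome TAATTA, which contains ATTA and TAAT, was in 0 of the 33 and in 5.35% of all promoters. The Zeb-type site CACCTG was in 5 of the 33 and 18.7% of all, and the Meis-type site TGACAG in 4 of the 33 and 18.8% of all, both strands counted. A match is a description of the letters and not a bound site.

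**Figure D2:**
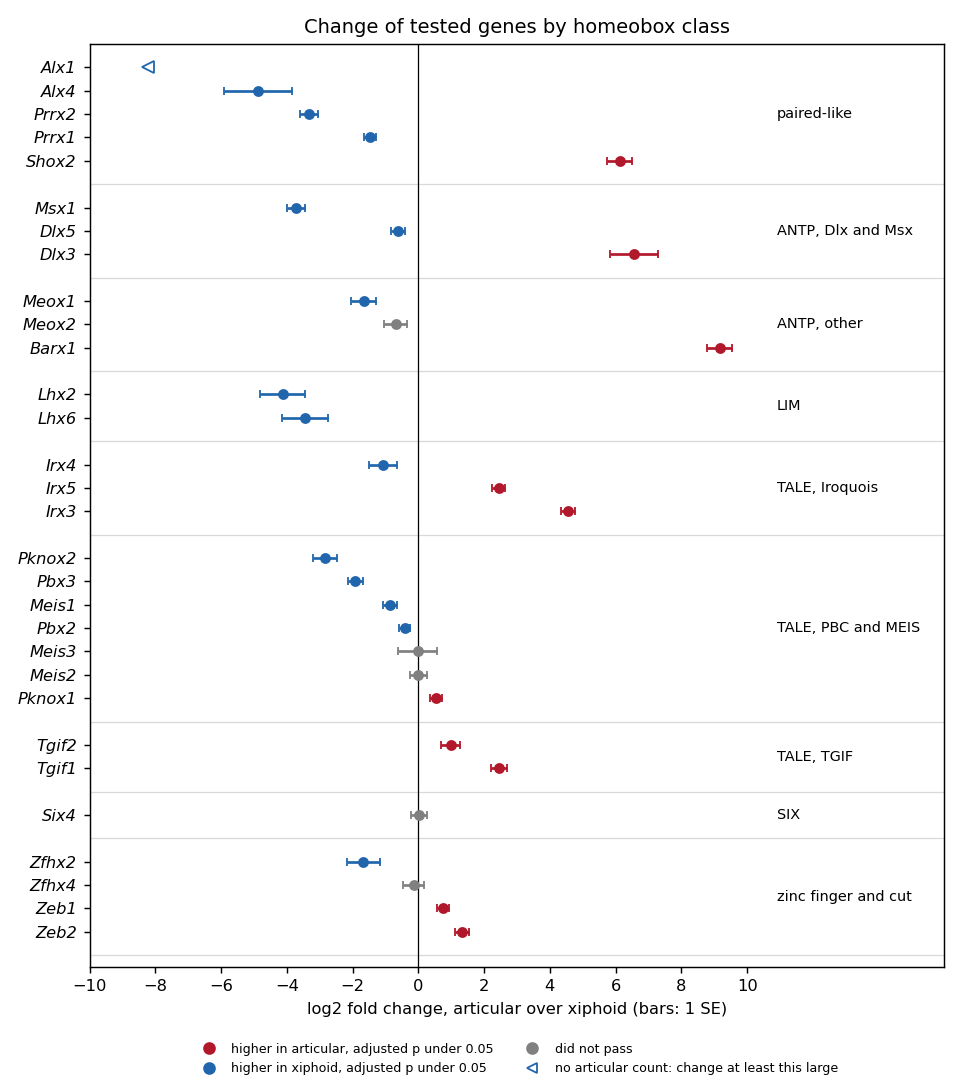
Log2 fold change, articular over xiphoid cartilage, of 30 tested genes grouped by homeobox class, with bars of 1 standard error. Red marks genes called higher in articular cartilage, blue those called higher in xiphoid cartilage and grey those that did not pass, and an open triangle shows the smallest change that 0 articular counts allow for Alx1.

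The Dlx and Msx genes act in jaw, limb and bone, where Dlx5 and Msx2 are known in osteoblasts and Dlx5 also in maturing chondrocytes. Dlx3, a factor of tooth, hair and bone, was higher in articular cartilage and Msx1 and Dlx5 were higher in xiphoid cartilage. Dlx3 had 72 and 48 counts in articular cartilage, against 1 and 0 in xiphoid cartilage, a 117-fold ratio of scaled counts (exact 95% interval for counting error, 20.7 to 4680.0) in favour of articular cartilage (edgeR adjusted p = 1.31e-05). Its fitted log2 fold change was 6.56, with 5.82 without xiphoid replicate 2 and 8.86 without xiphoid replicate 1, where no xiphoid count remained. Dlx4, the neighbour of Dlx3 on chromosome 10, had 2 and 4 counts in articular cartilage, against 0 and 0 in xiphoid cartilage and was not tested. Msx1, a factor of undifferentiated facial and limb mesenchyme, was at 1.91 and 2.18 CPM in the articular libraries, against 25.3 and 28.8 CPM in the xiphoid ones (log2 fold change -3.71, SE 0.27, edgeR adjusted p = 3.39e-07). Its xiphoid libraries lay 13.1-fold above its articular libraries on average, with no overlap.

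Dlx5 was at 42.7 and 52.8 CPM in the articular libraries, against 58.9 and 88.1 CPM in the xiphoid ones (log2 fold change -0.62, SE 0.20, edgeR adjusted p = 0.023). The tissues did not overlap, but xiphoid replicate 2 lay well above xiphoid replicate 1, and without xiphoid replicate 2 the log2 fold change was -0.29 and the adjusted p 0.387 (edgeR). Msx2 had 1 and 0 counts in articular cartilage, against 9 and 3 in xiphoid cartilage. Dlx1 had 1 and 0 counts in articular cartilage, against 0 and 0 in xiphoid cartilage. Neither was tested. Of 9 tested markers of osteoblasts and osteocytes, 8 were higher in articular cartilage and 0 in xiphoid cartilage, with Phex and Sost at 0 in both xiphoid libraries. These markers lay on the side of Dlx3 and opposite to Dlx5 and Msx1. Their part in the differences of Dlx3, Dlx5 and Msx1 was not tested.

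Barx1, a factor of stomach and tooth mesenchyme that is also known from developing joints, had the largest fitted change toward articular cartilage among the members. It had 1333 and 1174 counts in articular cartilage, against 0 and 4 in xiphoid cartilage, or 159.5 and 151 CPM (articular) and 0 and 0.548 CPM (xiphoid) (log2 fold change 9.17, SE 0.38, edgeR adjusted p = 3.02e-09). All 4 xiphoid counts lay in 1 library. Without xiphoid replicate 1 the log2 fold change was 8.11, and without xiphoid replicate 2, where no xiphoid count remained, it was 13.32, a value set by the prior count of the fit. Meox1 and Meox2, mesenchyme homeobox factors of the somite, were at lower levels in articular cartilage in each library. Meox1 was at 4.67 and 1.80 CPM in the articular libraries, against 10.1 and 10.6 CPM in the xiphoid ones (log2 fold change -1.66, SE 0.38, edgeR adjusted p = 0.00328), and its log2 fold change was -2.51 without articular replicate 1. Meox2, at 3.23 and 5.14 CPM in the articular libraries, against 7.88 and 5.48 CPM in the xiphoid ones, did not pass (log2 fold change -0.69, SE 0.35, edgeR adjusted p = 0.129), although it did without articular replicate 2 (log2 fold change -1.05, edgeR adjusted p = 0.0468).

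The Nkx genes and Emx2 were near the limit of detection. Nkx6-1 had 12 and 3 counts in articular cartilage, against 4 and 7 in xiphoid cartilage. Nkx2-2, Nkx2-5, Nkx6-3 and Emx2 had between 3 and 6 counts in all 4 libraries together, and none of the 5 was tested.

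The Iroquois genes are TALE-class factors that sit in 2 clusters of 3. Irx3 and Irx5, direct neighbours on chromosome 19, were both higher in articular cartilage. Irx3, which acts with Irx5 in limb bud and heart, was at 144 and 121 CPM in the articular libraries, against 5.76 and 5.48 CPM in the xiphoid ones (log2 fold change 4.55, SE 0.20, edgeR adjusted p = 3.68e-09). Irx5 was at 46.9 and 58.8 CPM in the articular libraries, against 9.99 and 9.32 CPM in the xiphoid ones (log2 fold change 2.45, SE 0.20, edgeR adjusted p = 1.13e-06). In both genes the articular libraries lay clear of the xiphoid libraries, 23.4-fold for Irx3 and 5.46-fold for Irx5. The third gene of that locus, Irx6, was not tested and had 2 and 0 counts in articular cartilage, against 0 and 0 in xiphoid cartilage. In the cluster on chromosome 1, Irx4, known from heart ventricle, was at 2.99 and 1.67 CPM in the articular libraries, against 4.35 and 5.62 CPM in the xiphoid ones (log2 fold change -1.08, SE 0.42, edgeR adjusted p = 0.0491). That call did not hold without articular replicate 2, xiphoid replicate 1 or xiphoid replicate 2 (edgeR adjusted p = 0.237, 0.052 and 0.222), under RLE (0.051) or upper-quartile (0.0614) scaling, without the ribosomal RNA rows (0.0557), or in DESeq2 (0.132). Its neighbour Irx2 had 8 and 4 counts in articular cartilage, against 0 and 0 in xiphoid cartilage, at least 3.92-fold higher in articular cartilage against 3 xiphoid counts. Irx1 had 0 and 0 counts in articular cartilage, against 4 and 2 in xiphoid cartilage, at least 2.04-fold lower in articular cartilage. Irx1 and Irx2 were not tested. Irx5 overlaps the noncoding gene Crnde in RefSeq, and without strand their reads cannot be told apart.

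**Figure D3:**
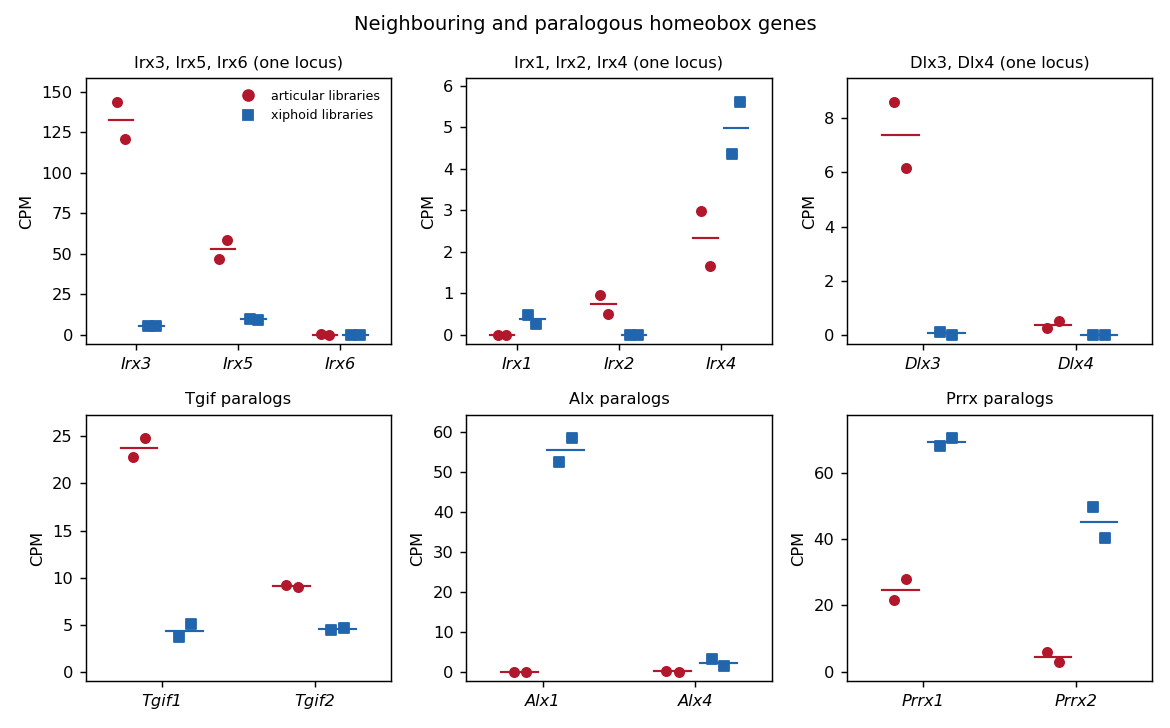
CPM of neighbouring homeobox genes (Irx and Dlx loci) and of Tgif, Alx and Prrx paralogs, with circles for articular libraries, squares for xiphoid libraries and short lines for the mean of each pair. Irx3, Irx5, Tgif1 and Tgif2 were higher in both articular libraries, and Alx1, Alx4, Prrx1 and Prrx2 in both xiphoid libraries.

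The PBC and MEIS genes of the TALE class, which bind DNA together with Hox proteins, moved in both directions. Pbx2, Pbx3, Pknox2 and Meis1 passed on the xiphoid side and Pknox1 on the articular side, while Meis2 and Meis3 did not pass. Pbx3 was at 6.58 and 5.78 CPM in the articular libraries, against 21.9 and 24.9 CPM in the xiphoid ones (log2 fold change -1.92, SE 0.23, edgeR adjusted p = 2.83e-05). Pknox2, also called Prep2, was at 1.55 and 1.16 CPM in the articular libraries, against 10.6 and 9.04 CPM in the xiphoid ones (log2 fold change -2.84, SE 0.36, edgeR adjusted p = 4.56e-05). Meis1, a Hox partner that also acts in blood stem cells, was at 19.0 and 26.7 CPM in the articular libraries, against 34.5 and 48.8 CPM in the xiphoid ones (log2 fold change -0.86, SE 0.22, edgeR adjusted p = 0.00694), a call that did not hold without xiphoid replicate 2 (log2 fold change -0.58, edgeR adjusted p = 0.0934). For Pbx3 and Pknox2 the tissues were far apart beside the spread of their libraries, while the gap between the tissues for Meis1 was smaller than the spread of its xiphoid libraries.

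Their paralogs Pbx2 and Pknox1 passed with small changes. Pbx2 was at 46.4 and 52.9 CPM in the articular libraries, against 64.7 and 67.8 CPM in the xiphoid ones (log2 fold change -0.42, SE 0.16, edgeR adjusted p = 0.0436). Pknox1, also called Prep1, was at 31.1 and 37.6 CPM in the articular libraries, against 23.1 and 23.8 CPM in the xiphoid ones (log2 fold change 0.55, SE 0.18, edgeR adjusted p = 0.0263). The changes were 1.33-fold and 1.47-fold, and neither call held throughout. For Pbx2 the edgeR adjusted p was 0.14, 0.166 and 0.254 without articular replicate 1 and without xiphoid replicates 1 and 2, and it was 0.0679 with upper-quartile scaling, 0.058 with a mean of at least 5 CPM and 0.11 in DESeq2. For Pknox1 it was 0.108, 0.142 and 0.0998 without articular replicate 2 and without xiphoid replicates 1 and 2, and 0.0671 in DESeq2. Meis2, at 12.2 and 17.3 CPM in the articular libraries, against 17.4 and 11.9 CPM in the xiphoid ones, had a log2 fold change of 0.00 (SE 0.26, edgeR adjusted p = 0.995). Meis3, at 2.75 and 1.03 CPM in the articular libraries, against 2.71 and 1.096 CPM in the xiphoid ones, had a log2 fold change of -0.02 (SE 0.60, edgeR adjusted p = 0.98). The libraries of the tissues overlapped for Meis2 and Meis3. Pbx4 had 2 and 0 counts in articular cartilage, against 1 and 1 in xiphoid cartilage and was not tested.

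The TGIF genes, TALE-class repressors of TGF-beta and retinoid responses, were both higher in articular cartilage. Tgif1 was at 22.9 and 24.8 CPM in the articular libraries, against 3.65 and 5.07 CPM in the xiphoid ones (log2 fold change 2.46, SE 0.25, edgeR adjusted p = 7.54e-06), and each articular library was above both xiphoid libraries. Tgif2 was at 9.21 and 8.99 CPM in the articular libraries, against 4.47 and 4.66 CPM in the xiphoid ones (log2 fold change 0.99, SE 0.29, edgeR adjusted p = 0.0125), and without xiphoid replicate 1 its log2 fold change was 0.97 and the adjusted p 0.0577.

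The Zeb factors, zinc finger homeobox repressors of the epithelial cadherin gene Cdh1, lay on the same side as Tgif1 and Tgif2. Zeb1 was at 42.7 and 57.2 CPM in the articular libraries, against 27.8 and 31.5 CPM in the xiphoid ones (log2 fold change 0.75, SE 0.19, edgeR adjusted p = 0.00544). Zeb2, which is also used by blood and nerve cells, was at 22.9 and 25.6 CPM in the articular libraries, against 9.05 and 10.1 CPM in the xiphoid ones (log2 fold change 1.34, SE 0.21, edgeR adjusted p = 0.000265). The articular libraries were above the xiphoid libraries in both genes. Zeb1 overlaps a coding and a noncoding gene in RefSeq, so its reads are uncertain without strand. Cdh1 was at 1.68 and 3.08 CPM in the articular libraries, against 17.1 and 20.4 CPM in the xiphoid ones (log2 fold change -2.98, SE 0.32, edgeR adjusted p = 1.05e-05). Other epithelial genes of the downstream list did not share that direction. Epcam, an epithelial adhesion protein, was higher in articular cartilage at 7.66 and 8.09 CPM in the articular libraries, against 2.94 and 2.47 CPM in the xiphoid ones (log2 fold change 1.53, SE 0.33, edgeR adjusted p = 0.0022). Esrp2, an epithelial splicing regulator, was at 13.5 and 10.4 CPM in the articular libraries, against 8.58 and 10.8 CPM in the xiphoid ones and did not pass (log2 fold change 0.31, SE 0.26, edgeR adjusted p = 0.35). Of 4 tested epithelium markers, which include Epcam and Cdh1 themselves, 2 were called for articular and 2 for xiphoid cartilage. Zeb2os, a noncoding RNA antisense to Zeb2 that met the symbol rule without being a homeobox gene, had 1 and 3 counts in articular cartilage, against 0 and 3 in xiphoid cartilage, and without strand its reads and those of Zeb2 cannot be told apart. Marrow markers moved with Zeb2, with 8 of 8 erythroid and 6 of 7 neutrophil markers higher in articular cartilage. Macrophage markers summed to 0.0152% and 0.0151% of articular counts and 0.0121% and 0.011% of xiphoid counts. Schwann cell and nerve markers summed to 0.041% and 0.0467% of articular counts and 0.26% and 0.264% of xiphoid counts, with 1 of 6 tested called for articular and 4 for xiphoid cartilage. The part of these markers in the Zeb2 difference was not tested.

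Of the large zinc finger homeobox genes, Zfhx2, a neuronal factor in mouse, was at 0.957 and 1.03 CPM in the articular libraries, against 2.82 and 3.56 CPM in the xiphoid ones (log2 fold change -1.67, SE 0.50, edgeR adjusted p = 0.0152). That call did not hold without articular replicate 1 (edgeR adjusted p = 0.0588), without xiphoid replicate 2 (0.138) or in DESeq2 (0.0645). Its interval overlaps the coding genes Thtpa and Ap1g2 in RefSeq, so its reads are uncertain. Zfhx4 was at 6.82 and 13.6 CPM in the articular libraries, against 12.6 and 9.73 CPM in the xiphoid ones and did not pass (log2 fold change -0.14, SE 0.32, edgeR adjusted p = 0.754). Cux2, a cut homeobox factor of cortical neurons, had 2 and 2 counts in articular cartilage, against 1 and 0 in xiphoid cartilage and was not tested.

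The LIM homeobox genes, which join a homeodomain to protein-binding LIM domains, had few counts. Lhx2 and Lhx6, the 2 that were tested, passed the low-count filter through xiphoid cartilage alone, which favours a higher level there without forcing one. Lhx2, which takes part in limb bud outgrowth and hair follicle stem cells, had 0 and 5 counts in articular cartilage, against 48 and 42 in xiphoid cartilage. The tissues did not overlap (log2 fold change -4.13, SE 0.69, edgeR adjusted p = 0.000363). The log2 fold change of Lhx2 was -3.12 without articular replicate 1 and -8.52 without articular replicate 2, where no articular count remained, and -4.81 in limma-voom. Lhx6, a factor of jaw mesenchyme and forebrain interneurons, had 1 and 3 counts in articular cartilage, against 28 and 18 in xiphoid cartilage. Its test passed (log2 fold change -3.46, SE 0.70, edgeR adjusted p = 0.00147), with log2 fold changes of -2.86 and -4.43 without articular replicates 1 and 2. The xiphoid libraries held at least 18 counts of Lhx6 each, against at most 3 in an articular library. Lmx1a, known from roof plate and midbrain, had 0 and 0 counts in articular cartilage, against 9 and 7 in xiphoid cartilage, so it was at least 5.45-fold lower in articular cartilage. Lmx1b, the factor of the dorsal limb, had 6 and 1 counts in articular cartilage, against 3 and 3 in xiphoid cartilage, with overlap between tissues. Lhx4, Lhx5 and Lhx9 had at most 4 counts in a library, and none of these 5 untested LIM genes allows a comparison by the fit.

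Six4, which acts with Eya proteins in muscle and sensory organs, did not pass. It was at 11.96 and 14.3 CPM in the articular libraries, against 11.2 and 14.7 CPM in the xiphoid ones (log2 fold change 0.02, SE 0.24, edgeR adjusted p = 0.943). The libraries of the tissues overlapped. Of 11 tested muscle markers, 10 were called for xiphoid cartilage and 0 for articular cartilage. Six4 overlaps the coding gene Mnat1 in RefSeq and Shox2 overlaps Rsrc1, so their reads are uncertain without strand. Six2, a factor of kidney and joint mesenchyme, had 10 and 10 counts in articular cartilage, against 4 and 8 in xiphoid cartilage and was not tested.

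The 22 genes not tested had between 1 and 32 counts in all, and at most 12 in a library. Of these, 4 had no count in articular cartilage and 6 had none in xiphoid cartilage. With 3 counts over a tissue's pair of libraries as the limit, a gene at 0 could still lie at up to 0.186 CPM in articular and 0.190 CPM in xiphoid tissue. This limit and the intervals above cover counting error only.

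Partners and cofactors of these factors were followed in a separate list. Of 26 listed genes, 20 were in the table and 18 tested, of which 3 passed on the articular side and 6 passed on the xiphoid side, with a median log2 fold change of -0.15. These were 16.7% and 33.3% of the list, 9 of 18 in all, beside 25.0% and 24.5%, or 49.5% in all, over every gene tested. Lmo1, a LIM-only protein, was at 2.51 ± 1.01 CPM in articular and 15.3 ± 0.140 CPM in xiphoid samples (mean ± SD, n = 2 each, log2 fold change -2.59, SE 0.32, edgeR adjusted p = 3.28e-05). Lmo4 was at 82.8 ± 4.25 CPM in articular and 176 ± 9.45 CPM in xiphoid samples (log2 fold change -1.09, SE 0.15, edgeR adjusted p = 6.93e-05). Ldb2, the LIM-domain binding protein, was at 6.29 ± 1.46 CPM in articular and 16.2 ± 0.584 CPM in xiphoid samples (log2 fold change -1.36, SE 0.26, edgeR adjusted p = 0.000915). The Ldb partner Ssbp3 was at 28.1 ± 11.4 CPM in articular and 65.1 ± 2.38 CPM in xiphoid samples (log2 fold change -1.21, edgeR adjusted p = 0.00118). The related Ldb1 and Lmo2 did not pass. Ldb1 was at 58.9 ± 10.4 CPM in articular and 79.0 ± 16.8 CPM in xiphoid samples (log2 fold change -0.42, edgeR adjusted p = 0.0801), and Lmo2 at 12.4 ± 1.39 CPM in articular and 13.5 ± 1.01 CPM in xiphoid samples (log2 fold change -0.12, edgeR adjusted p = 0.691).

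The related Ssbp4 was at 17.5 ± 7.002 CPM in articular and 29.1 ± 4.38 CPM in xiphoid samples (log2 fold change -0.73, edgeR adjusted p = 0.0323), a call that did not hold without articular replicate 2 (0.156), without xiphoid replicate 1 (0.145) or in DESeq2 (0.0511). Pbxip1, a protein that binds Pbx and keeps it from DNA, was at 109.5 ± 21.7 CPM in articular and 269 ± 10.96 CPM in xiphoid samples (log2 fold change -1.29, SE 0.16, edgeR adjusted p = 4.34e-05). On the articular side, the corepressor Ncor1 was at 79.4 ± 3.81 CPM in articular and 37.4 ± 4.03 CPM in xiphoid samples (log2 fold change 1.09, SE 0.16, edgeR adjusted p = 0.000145). Ctbp2, the corepressor of Zeb factors, was at 46.5 ± 13.4 CPM in articular and 30.5 ± 2.57 CPM in xiphoid samples (log2 fold change 0.61, edgeR adjusted p = 0.0279), with an adjusted p of 0.252 without articular replicate 2 and 0.12 without xiphoid replicate 1. Eya3, the phosphatase partner of Six4 and its relatives, was at 44.4 ± 8.01 CPM in articular and 31.1 ± 1.39 CPM in xiphoid samples (log2 fold change 0.51, edgeR adjusted p = 0.0335) and its call did not hold in DESeq2 (0.0749) or without articular replicate 2 (0.19), xiphoid replicate 1 (0.0987) or xiphoid replicate 2 (0.166).

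Of 27 genes known to act downstream of such factors in skeleton, epithelium or muscle, 23 were in the table and 20 tested, with 11 on the articular side, 5 on the xiphoid side and a median log2 fold change of 0.75. That was 55.0% and 25.0% of the list, beside 25.0% articular and 24.5% xiphoid calls over all genes tested. The articular side held the bone and hypertrophy factors Runx2, Runx3 and Sp7. Runx2 was at 135 ± 40.9 CPM in articular and 17.1 ± 3.10 CPM in xiphoid samples (log2 fold change 2.98, SE 0.23, edgeR adjusted p = 6.18e-07). Runx3 was at 100.5 ± 3.21 CPM in articular and 1.45 ± 1.05 CPM in xiphoid samples (log2 fold change 6.15, SE 0.30, edgeR adjusted p = 1.06e-08). Sp7 was at 56.3 ± 1.73 CPM in articular and 1.26 ± 0.0428 CPM in xiphoid samples (log2 fold change 5.46, SE 0.25, edgeR adjusted p = 6.81e-09). Runx3 had a log2 fold change of 5.52 without xiphoid replicate 1 and 7.14 without xiphoid replicate 2. Bmp2, a bone morphogenetic protein, was at 17.4 ± 1.31 CPM in articular and 4.36 ± 1.01 CPM in xiphoid samples (log2 fold change 2.01, SE 0.27, edgeR adjusted p = 7.11e-05). The cell cycle inhibitor Cdkn1a was at 202 ± 39.5 CPM in articular and 45.9 ± 1.01 CPM in xiphoid samples (log2 fold change 2.14, SE 0.17, edgeR adjusted p = 9.5e-07). The bone matrix genes had the largest changes of the list. Ibsp was at 1927 ± 736 CPM in articular and 8.20 ± 1.71 CPM in xiphoid samples (log2 fold change 7.87, edgeR adjusted p = 3.22e-08). Bglap was at 461 ± 65.7 CPM in articular and 5.66 ± 0.521 CPM in xiphoid samples (log2 fold change 6.35, edgeR adjusted p = 3.75e-10). Tbx18, a T-box factor of somite and heart, was at 6.79 ± 1.66 CPM in articular and 1.36 ± 0.594 CPM in xiphoid samples (log2 fold change 2.33, edgeR adjusted p = 0.000866). Several of these genes, such as Sp7, are also bone cell markers, and with the listed markers of other cell types removed the count higher in articular cartilage was 7 of 15 tested.

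On the xiphoid side of the downstream list were Cdh1, given above with the Zeb genes, and 4 others. The Bmp2 relatives Bmp4 and Bmp7 lay on the same side as Msx1. Bmp4 was at 1.43 ± 0.159 CPM in articular and 5.68 ± 0.283 CPM in xiphoid samples (log2 fold change -1.98, SE 0.41, edgeR adjusted p = 0.00165). Bmp7 was at 6.25 ± 0.299 CPM in articular and 20.0 ± 2.87 CPM in xiphoid samples (log2 fold change -1.67, SE 0.24, edgeR adjusted p = 0.000117). Fgfr3, the receptor that restrains growth plate chondrocytes, was at 399.9 ± 42.0 CPM in articular and 1024 ± 121 CPM in xiphoid samples (log2 fold change -1.36, SE 0.16, edgeR adjusted p = 2.32e-05). Foxc2, a forkhead factor of vertebrae and vessels, was at 14.7 ± 2.24 CPM in articular and 28.9 ± 4.46 CPM in xiphoid samples (log2 fold change -0.97, SE 0.21, edgeR adjusted p = 0.00232).

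Of 88 other homeobox genes outside the symbol rule, 42 were in the table and 20 tested, with 4 on the articular side, 5 on the xiphoid side and a median log2 fold change of 0.00. That was 20.0% and 25.0% of the list, beside 25.0% articular and 24.5% xiphoid calls over all genes tested. Pitx1, the hindlimb factor left out of the rule, was at 39.1 ± 5.04 CPM in articular and 75.1 ± 6.04 CPM in xiphoid samples (log2 fold change -0.94, SE 0.17, edgeR adjusted p = 0.000536). Zhx1 and Zhx3, zinc finger homeobox repressors, parted. Zhx1 was at 23.6 ± 1.71 CPM in articular and 9.66 ± 0.863 CPM in xiphoid samples (log2 fold change 1.29, SE 0.21, edgeR adjusted p = 0.000357). Zhx3 was at 20.7 ± 1.06 CPM in articular and 44.3 ± 4.35 CPM in xiphoid samples (log2 fold change -1.10, SE 0.18, edgeR adjusted p = 0.000293). Gsc, a paired-like factor of the early embryo and the face, was at 6.19 ± 2.58 CPM in articular and 2.13 ± 0.307 CPM in xiphoid samples (log2 fold change 1.53, edgeR adjusted p = 0.00936), with an adjusted p of 0.133 without articular replicate 1. Tshz3 was at 5.37 ± 0.694 CPM in articular and 10.3 ± 3.26 CPM in xiphoid samples (log2 fold change -0.93, edgeR adjusted p = 0.0262). The ceramide synthase Cers2, which carries a homeobox-like domain, was at 73.2 ± 7.35 CPM in articular and 115 ± 12.3 CPM in xiphoid samples (log2 fold change -0.65, edgeR adjusted p = 0.00476). Hlx was at 16.7 ± 3.28 CPM in articular and 25.7 ± 2.95 CPM in xiphoid samples (log2 fold change -0.62, edgeR adjusted p = 0.0291). None of the 3 held without xiphoid replicate 2, with adjusted p of 0.286 for Tshz3, 0.0861 for Cers2 and 0.209 for Hlx. Without articular replicate 2 it was 0.0592 for Tshz3 and 0.114 for Hlx, and in DESeq2 it was 0.0683 for Tshz3 and 0.0746 for Hlx.

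**Figure D4:**
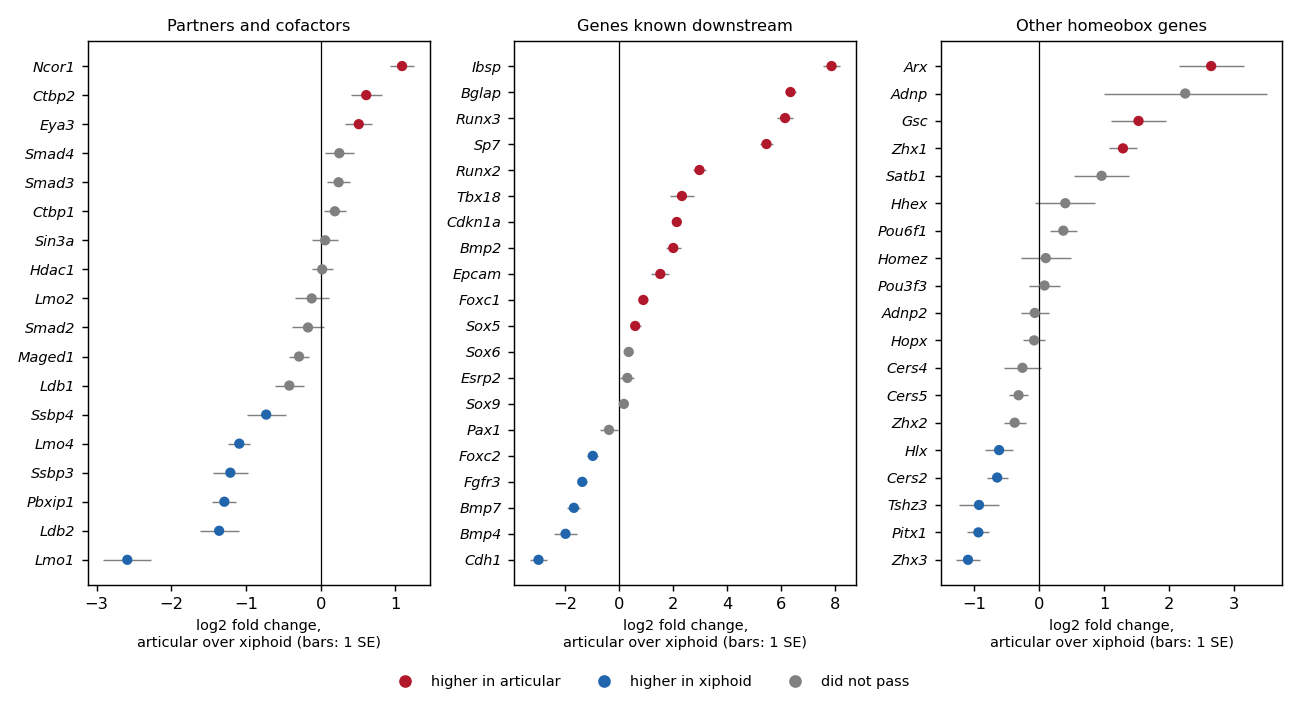
Log2 fold change, articular over xiphoid cartilage, with bars of 1 standard error, of tested genes in 3 lists: partners and cofactors, genes known downstream, and homeobox genes outside the symbol rule and the Hox clusters. Red marks genes called higher in articular cartilage, blue those called higher in xiphoid cartilage and grey those that did not pass. Lmo1 has the lowest value in the first panel, Ibsp the highest in the second and Zhx3 the lowest in the third.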

How the data were processed

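RNA-seq of 2 articular and 2 xiphoid cartilage samples was used. The deposited table gave an expected count per gene and library, with no normalization, per the file headers. Per the submitters' processing notes, which give no role or order, the tools were RSEM 1.2.12, Bowtie2 2.2.6, StringTie 1.2.1 and HISAT2 2.0.4, with build rn6. The use of strand in counting was not given in the sources read. Counts were rounded, genes were filtered with filterByExpr by tissue, which left 11202 of 13554 tested, and scaled by TMM. Each gene was tested with the edgeR 4.0.16 quasi-likelihood test (robust, tissue only) in R 4.3.3, 2-sided, and adjusted by Benjamini-Hochberg across the 11202 genes. The residual degrees of freedom were 2, and the biological coefficient of variation was 14.1%. The standard error is the log2 fold change divided by the square root of F. Where a tissue held 1 to 3 counts, the ratio of counts has an exact conditional binomial interval. On simulated counts the script recovered 70.7% of 99 genes changed 2-fold and 95% of 100 changed 4-fold. It made 6 false calls among 11101 genes tested. No larger changes were simulated, so genes nearly confined to 1 tissue were not covered. The members and lists were chosen with earlier results of these data known. The rule was to name every member and to give each tested member that reached 1 CPM in either tissue per library. The results of 5 members and 1 listed gene are not reported here, although the counts over all members and lists include them. Listed genes were named if called at 5 CPM or more, at most 8 per direction. Epcam, Esrp2, Ldb1 and Lmo2 were added after their values were seen. Names and neighbours are from the RefSeq table of GRCr8, in which all 56 identifiers were matched and 15 of the tested genes overlap another gene. No transcript length was used, so levels are compared within a gene only. Alternatives were RLE, upper-quartile and no scaling factors, 2 other filters, DESeq2 1.42.0, limma-voom (limma 3.58.1), a replicate block, leaving out each library in turn, and removing ribosomal RNA rows or other cells' markers.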

Additional observations from a re-analysis of the deposited data

How the results depend on the processing

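Of the 25 called members reported here, 18 stayed called with the same direction in every alternative that tested them, and 0 changed direction. The other 7 (Pbx2, Dlx5, Pknox1, Meis1, Tgif2, Irx4 and Zfhx2) lost the call in at least 1 alternative, with the values given beside them, and the cause was not tested. Among the 18, Barx1, Shox2, Dlx3, Pknox2, Alx1, Alx4, Lhx2 and Lhx6 passed the filter through 1 tissue alone. That favours a call in the same direction in each alternative. A fit without 1 library leaves 1 tissue with only 1 library. Its adjusted p then rests on the spread of the other tissue and of other genes, so keeping or losing a call there is a weak check. The replicate block also leaves fewer degrees of freedom than the main fit. Alx4 was not tested without xiphoid replicate 1, and Alx4, Dlx3, Lhx2 and Lhx6 were not tested with a mean of at least 5 CPM. Leaving out 1 library gave 8 to 10 members higher in articular cartilage and 12 to 17 higher in xiphoid cartilage, and the other alternatives gave 9 to 11 and 9 to 18. With a mean of at least 5 CPM, 25 members were tested and 9 were higher in xiphoid cartilage. Fewer genes pass that filter, and Pbx2 was tested there but lost its call (edgeR adjusted p = 0.058). In the same setting, 2 of the other homeobox genes were higher in articular cartilage. DESeq2 called 3 of the other homeobox genes higher in xiphoid cartilage, and leaving out 1 library gave 3 to 6, with 3 without xiphoid replicate 2. For the partners, leaving out 1 library gave 1 to 4 higher in articular cartilage, with 1 without articular replicate 2 and 1 without xiphoid replicate 1. Without the markers of other cell types, 7 downstream genes were higher in articular cartilage, since markers in that list had been removed. Some members that did not pass changed sign around 0, and leaving out 1 library gave log2 fold changes of -0.27 to 0.31 for Meis2, -0.71 to 0.28 for Zfhx4 and -0.90 to 0.80 for Meis3. Six4 was at -0.10 and -0.15 without articular replicate 2 and xiphoid replicate 1. Meis2 was at -0.0028 with library totals alone, -0.01 in limma-voom, and -0.27 and -0.23 without articular replicate 2 and xiphoid replicate 2. Zfhx4 was at 0.28 and 0.07 without articular replicate 1 and xiphoid replicate 1. Meis3 was at 0.03 with upper-quartile scaling, 0.0011 without ribosomal RNA rows, and 0.51 and 0.80 without articular replicate 2 and xiphoid replicate 1. The tissues share replicate numbers, but 2 pairs do not show pairing. Same-numbered libraries deviated together with a correlation of 0.24 across genes, and with the replicate block 3344 of all genes passed on the articular side and 3484 on the xiphoid side, and the members' counts stayed at 10 and 17. Upper-quartile scaling moved the median of all genes by 0.05.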
